A study of Mus musculus with 6 samples.

Results

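The genes described here are 34 genes of sterol and fatty acid synthesis, named by their role in the pathways controlled by the SREBP transcription factors and matched by symbol. All 34 were found among the 38207 genes and loci of the deposited table, and 25 of them had enough reads to be tested, among 13127 genes and loci tested in all. In mouse brain microglia after experimental stroke, 2 of the 25 rose and none fell, where 18.1% of all tested genes changed. Dhcr7, which encodes a reductase of the last steps of cholesterol synthesis, was 2.98-fold higher, and Elovl5, which encodes an elongase of polyunsaturated fatty acids, was 1.88-fold higher.

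The 3 tMCAO libraries came from brain microglia of wild-type mice after an operation that models ischemic stroke. The abbreviation usually stands for transient middle cerebral artery occlusion, the blocking and reopening of a brain artery. They were set against 3 libraries of microglia from wild-type mice after sham surgery, and each library pooled 30 mice. Strain, age, isolation method and time since the operation were not given in the sources used here. RNA was read as cDNA on nanopores, and levels are in CPM, counts scaled to a common library total, with no scaling by transcript length, so levels are not compared between genes.

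Cells make cholesterol from acetyl-CoA through mevalonate, isoprenoids, squalene and lanosterol. The same acetyl-CoA feeds fatty acid synthase, whose products are then desaturated and elongated. When sterols run low in the endoplasmic reticulum, the escort protein SCAP carries SREBP factors to the Golgi, where they are cut and released to switch on both sets of enzymes. INSIG proteins hold SCAP back when sterols are plentiful. In the adult brain, astrocytes and oligodendrocytes make most of the cholesterol, and microglia take up lipid from debris and myelin.

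Library totals were 1855495 to 2030550 counts after tMCAO and 2371235 to 2614512 after sham, and mitochondrial transcripts held 0.830 to 1.04% and 1.79 to 3.35% of them. An exact permutation test, two-sided, gave p = 0.1 for each of these measures, the smallest that 3 libraries against 3 allow. The 7 microglial markers checked had reads in every library, 2 of them (P2ry12 and Siglech) fell, and P2ry12 was at 1936 to 2639 CPM after tMCAO and 3239 to 3838 CPM after sham. Of 7 astrocyte markers, 4 were tested and 2 fell, with summed levels of 63.0 to 90.5 CPM after tMCAO and 136 to 408 CPM after sham. Of 7 oligodendrocyte markers, 1 fell, with sums of 146 to 344 CPM after tMCAO and 187 to 1039 CPM after sham. Of 6 choroid plexus markers, 1 fell, with sums of 2271 to 9960 and 8627 to 44619 CPM. Of 6 monocyte markers, 5 were tested and 3 rose, with sums of 134 to 243 CPM after tMCAO and 85.7 to 104 CPM after sham. Of 6 markers of border-associated macrophages, 3 rose, with sums of 284 to 371 and 155 to 203 CPM. F13a1 is in both of these lists, counts among the markers that rose in each, and is part of both sums. It had 69.4, 63.1 and 74.6 CPM in tMCAO 1 to 3, against 26.6, 15.1 and 16.4 CPM in sham 1 to 3. Among the other monocyte markers, Ly6c2 and Chil3 did not pass, and their groups overlapped. Among those of border-associated macrophages, Pf4, Lyve1 and Cbr2 did not pass, and their groups overlapped too. Their log2 fold changes were 0.48, 0.40 and -0.68, so Cbr2 went the other way. Erythroid sums were 215 to 379.7 CPM after tMCAO and 955 to 6040 CPM after sham, and endothelial sums were 114 to 292 and 176 to 253 CPM. None of the 5 neuronal markers was tested, and their sums were 3.20 to 7.88 and 7.65 to 9.28 CPM. Over all genes tested, 9.17% rose and 8.96% fell, and the marker counts were not tested against these shares. A count of 1 among 6 or 7 markers cannot be told apart from them. Among the astrocyte and monocyte markers, Aldh1l1 was at 0 in tMCAO 1 and Vcan in tMCAO 2, sham 1 and sham 3. In bulk RNA, fewer cells of a type and less RNA per cell cannot be told apart, and the part of these cells in the values below was not tested.

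**Figure D1:**
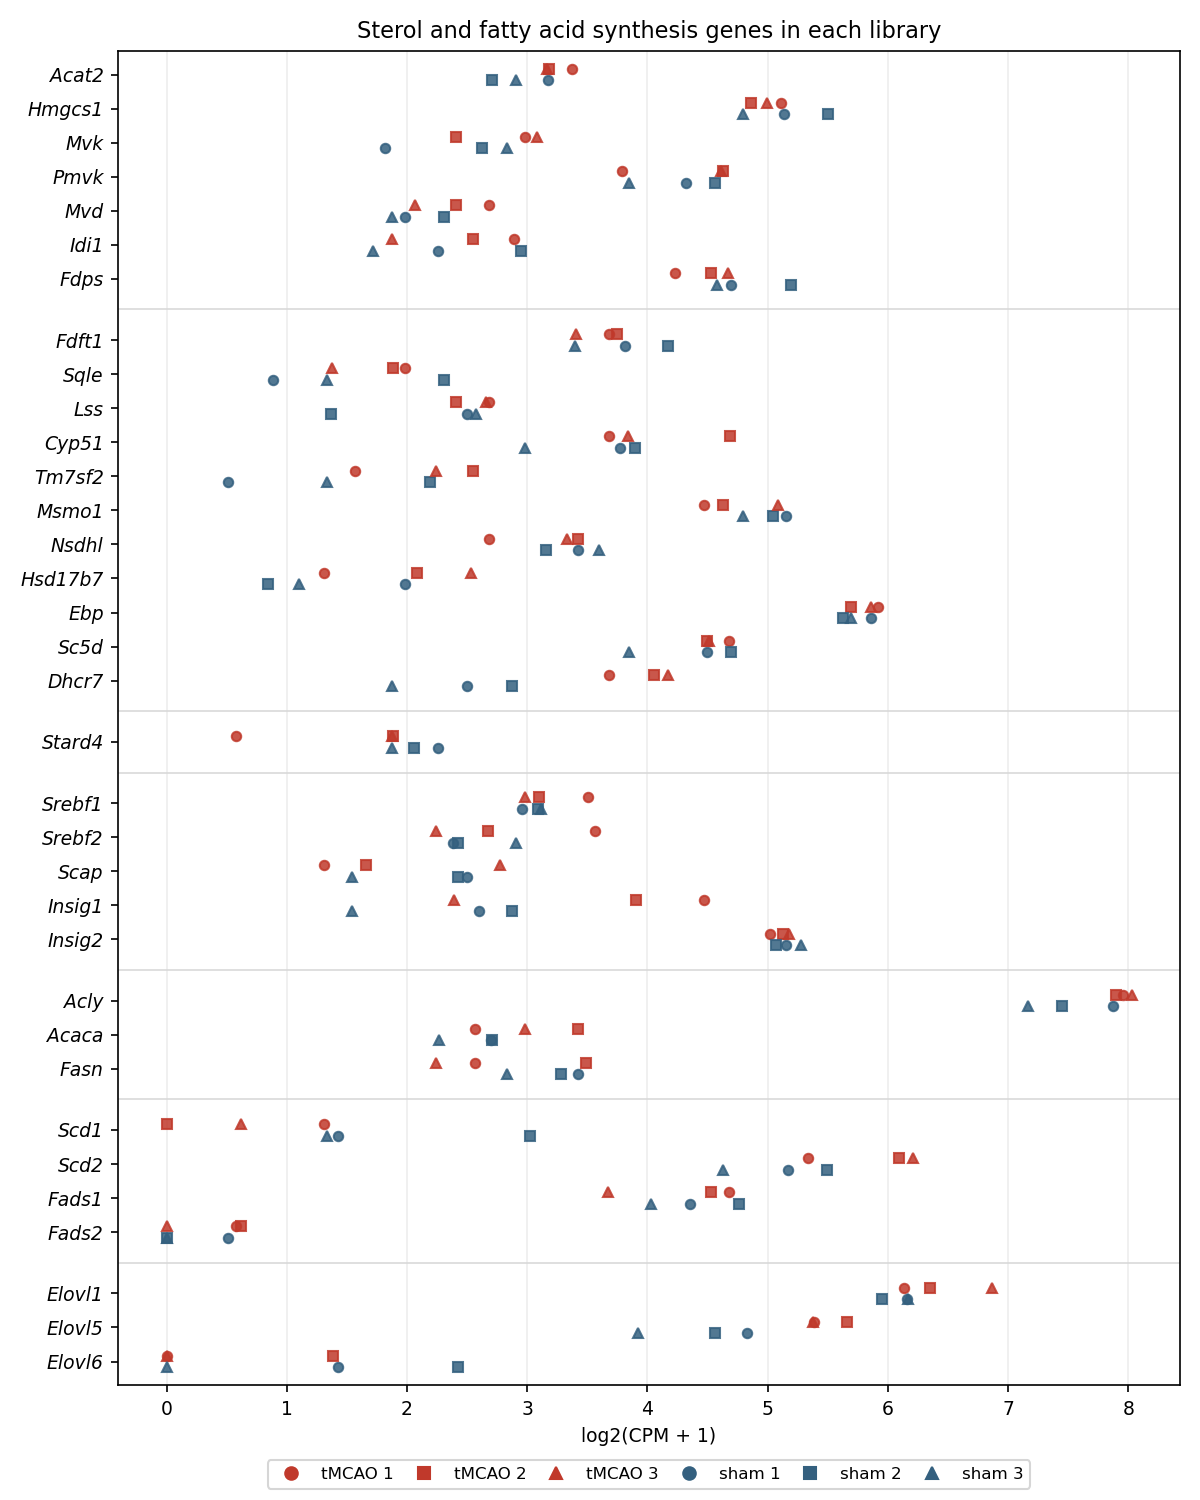
Level of each of the 34 genes in each library, on a log2(CPM + 1) axis, with tMCAO libraries in red above sham libraries in blue. For Dhcr7 and Elovl5 the red points all lie to the right of the blue points, while for most genes the colours mix.

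Setting tMCAO against sham addresses how gene expression in microglia differs after ischemic stroke. Among the 25 tested members, 2 passed edgeR's quasi-likelihood test (adjusted p under 0.05 over all 13127 genes and loci), and both were higher. Over all genes and loci tested, 9.17% were higher and 8.96% lower, 18.1% in all, so the members' count of 2 higher and 0 lower is not above that background. With library totals as the only scaling the calls over all genes were 1485 higher and 863 lower, and with upper-quartile scaling 1043 and 1431, against 1204 and 1176 as reported. The median log2 fold change was 0.06 over the 25 members and 0.00027 over all genes tested. For 3 of the 25 members the tMCAO and sham libraries did not overlap in CPM (Dhcr7, Elovl5 and Acly), where 37.8% of all tested genes showed no overlap. Fold changes are scaled by TMM, whose factors were 0.979 to 1.07 for tMCAO and 0.920 to 0.987 for sham libraries, so a fold change can sit slightly below the ratio of the CPM values.

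Dhcr7 (ENSMUSG00000058454) encodes 7-dehydrocholesterol reductase. It had 11.8, 15.6 and 17.0 CPM in tMCAO libraries 1 to 3, against 4.64, 6.34 and 2.68 CPM in sham libraries 1 to 3. Every tMCAO library was above every sham library. These levels rest on 24, 29 and 32 counts after tMCAO and on 11, 16 and 7 counts after sham. The log2 fold change was 1.57 ± 0.38 (SE), about a 2.98-fold rise with a 95% interval of 1.69 to 5.23, at an adjusted p of 0.0122 in edgeR's test. The call was lost without sham 1 (adjusted p = 0.0512), without sham 3 (0.0544) and with both sham 1 and tMCAO 3 left out (0.0821). Across the 16 alternatives its adjusted p was between 0.000489 and 0.0821, and the log2 fold change stayed between 1.27 and 1.92.

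Elovl5 (ENSMUSG00000032349) lengthens polyunsaturated fatty acids of the linoleic and linolenic families. It had 40.9, 49.6 and 40.5 CPM in tMCAO 1 to 3, against 27.4, 22.6 and 14.2 CPM in sham 1 to 3. Here too the groups did not overlap, and sham 3 was the lowest library. The rise was 0.91 ± 0.25 on the log2 scale, or 1.88-fold with a 95% interval of 1.29 to 2.73, at an adjusted p of 0.0241 in edgeR's test. The call was lost without sham 3 (adjusted p = 0.0980) and without tMCAO 2 (0.0778), within a range of 0.00105 to 0.0980 over the alternatives. Without sham 3, none of the 25 members was called by edgeR's test.

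**Figure D2:**
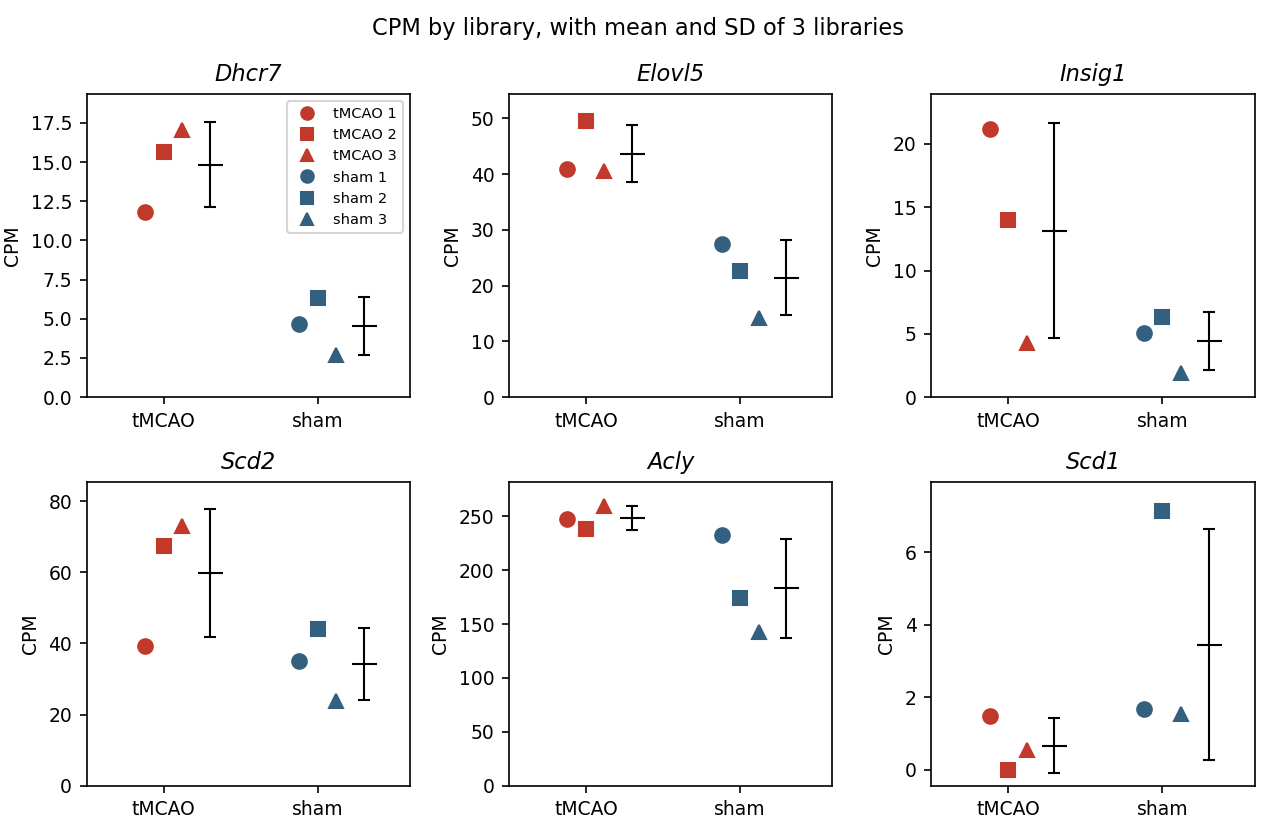
CPM of 6 members in each library (tMCAO in red, left; sham in blue, right), with the mean and SD of 3 libraries per group as black bars. Dhcr7 lay at 11.8 to 17.0 CPM in tMCAO and 2.68 to 6.34 CPM in sham libraries, and Insig1 was spread from 4.26 to 21.2 CPM among tMCAO libraries.

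Promoter windows of both genes that rose are shown with that of Hmgcs1, a member that did not pass the test and whose window holds a core sterol regulatory element. Each window runs from 250 bases before to 50 bases after a transcription start, in RefSeq's annotation of GRCm38.p6, and is printed 5′ to 3′ on the gene's strand. They lie at chr7:143829964-143830263 (Dhcr7, plus strand), chr9:77917115-77917414 (Elovl5, plus strand) and chr13:119690101-119690400 (Hmgcs1, plus strand). Capitals mark CCAAT or its reverse complement, the box bound by the factor NF-Y, a usual partner of SREBP.
Dhcr7: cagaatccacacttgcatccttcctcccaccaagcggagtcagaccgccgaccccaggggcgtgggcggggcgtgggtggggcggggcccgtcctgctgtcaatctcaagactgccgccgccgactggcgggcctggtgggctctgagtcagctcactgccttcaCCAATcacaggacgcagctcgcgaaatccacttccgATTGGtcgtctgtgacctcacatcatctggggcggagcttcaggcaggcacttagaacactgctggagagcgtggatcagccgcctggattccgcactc
Elovl5: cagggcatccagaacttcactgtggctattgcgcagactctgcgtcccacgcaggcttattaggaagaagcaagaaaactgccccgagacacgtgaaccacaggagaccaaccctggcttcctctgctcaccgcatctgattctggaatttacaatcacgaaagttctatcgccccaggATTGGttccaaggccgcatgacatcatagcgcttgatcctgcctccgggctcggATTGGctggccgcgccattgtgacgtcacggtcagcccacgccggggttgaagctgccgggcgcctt
Hmgcs1: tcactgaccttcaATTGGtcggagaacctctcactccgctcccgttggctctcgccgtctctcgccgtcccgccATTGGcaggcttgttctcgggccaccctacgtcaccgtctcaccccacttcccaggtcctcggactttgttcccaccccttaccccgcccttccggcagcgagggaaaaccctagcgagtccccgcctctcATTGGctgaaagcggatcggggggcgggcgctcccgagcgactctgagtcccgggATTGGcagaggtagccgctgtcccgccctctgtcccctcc

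NF-Y boxes began at positions -85 and -49 from the start in the Dhcr7 window and at -71 and -17 in the Elovl5 window. In the Hmgcs1 window they began at -237, -176, -45 and 11, and the letters CACCCCAC of the SRE-1 core began at -136. Dhcr7 has 2 other windows, and neither holds a CCAAT box. The window shown for Dhcr7 was chosen as the one with the most CCAAT boxes.

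RefSeq windows were found for 27 of the 34 genes. The letters CCAAT, on either strand, were in a window of 22 of the 27 (81.5%), against 43.3% of 6848 tested genes with a window and 41.1% of all 27025 genes with one. GGGCGG, the box of the factor Sp1, was also in windows of 22 members (81.5%), against 69.4% of tested genes and 38.2% of all. CACGTG, an E-box, was in windows of 6 members (22.2%), against 12.7% of tested genes and 8.09% of all, and the 6 were Hsd17b7, Sc5d, Dhcr7, Scap, Insig1 and Elovl5. The E-box of Dhcr7 lies in a window not printed above, at chr7:143823149-143823448. The SRE-1 core was in the windows of Acat2 and Hmgcs1 only (7.41%), against 3.83% of tested genes and 3.30% of all. None of these motifs contains another, a gene can have several windows, and a match describes letters, not binding.

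**Figure D3:**
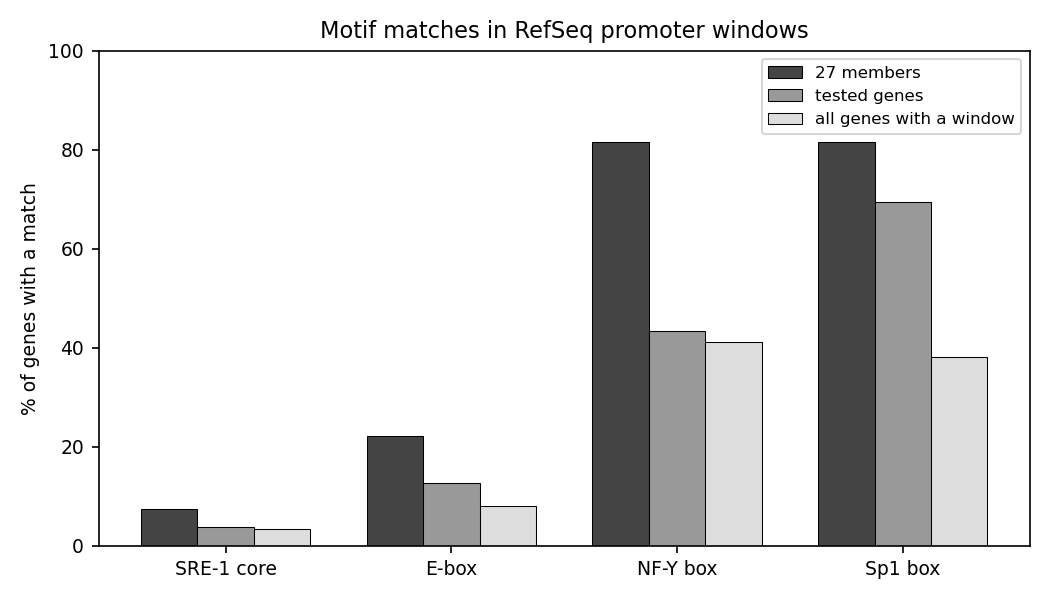
Share of genes with each motif in a RefSeq promoter window, for 27 members (dark), tested genes (grey) and all genes with a window (light). The NF-Y box was in 81.5% of members, against 43.3% of tested genes, and the SRE-1 core was rare in all 3 sets.

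Of 7 genes of the mevalonate and isoprenoid steps, 6 were tested and none passed. Hmgcs1, the synthase that makes HMG-CoA, had 33.5, 28.0 and 30.9 CPM in tMCAO 1 to 3, against 34.2, 44.4 and 26.8 CPM in sham 1 to 3. The 3 tMCAO values lay within the span of the sham values. Its log2 fold change was -0.31 ± 0.24 (95% interval -0.82 to 0.20, adjusted p = 0.396 in edgeR's test), so a doubling and a halving both lay outside the interval. Fdps, the synthase of farnesyl diphosphate, had 17.7, 22.1 and 24.5 CPM in tMCAO 1 to 3, against 24.9, 35.7 and 22.9 CPM in sham 1 to 3. It did not pass either, at -0.50 ± 0.26 (adjusted p = 0.208 in edgeR's test), and its interval, -1.06 to 0.07, just reached past a halving. Among the rest of these steps, Acat2 (the cytosolic thiolase), Mvk and Pmvk (the mevalonate kinases) and Idi1 (the isomerase of isopentenyl diphosphate) had log2 fold changes of 0.23, 0.31, 0.0033 and -0.0043, with SE of 0.33, 0.43, 0.31 and 0.51. Mvd, the decarboxylase, had 11, 8 and 6 counts after tMCAO and 7, 10 and 7 after sham, too few to test.

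Of 11 genes between squalene and cholesterol, 8 were tested, and Dhcr7 was the 1 that passed. Ebp, the sterol isomerase that also binds emopamil, had 59.6, 50.7 and 57.0 CPM in tMCAO 1 to 3, against 56.9, 48.4 and 50.9 CPM in sham 1 to 3. The groups overlapped, and at -0.02 ± 0.18 (95% interval -0.40 to 0.37, adjusted p = 0.965 in edgeR's test) this was the narrowest interval among the sterol enzymes. Sc5d acts just before Dhcr7, as the desaturase that makes 7-dehydrocholesterol. It had 24.6, 21.6 and 21.8 CPM in tMCAO 1 to 3, against 21.5, 24.97 and 13.4 CPM in sham 1 to 3, so the tMCAO values lay inside the sham span. Its log2 fold change was 0.06 ± 0.27 (interval -0.52 to 0.65, adjusted p = 0.906 in edgeR's test). The interval of Dhcr7 itself, 0.76 to 2.39, lay above the estimates of Sc5d and Ebp, but the difference between these genes was not tested.

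Msmo1, the methyl sterol oxidase, had 21.2, 23.7 and 33.0 CPM in tMCAO 1 to 3, against 34.6, 32.1 and 26.8 CPM in sham 1 to 3. The groups overlapped, with a log2 fold change of -0.37 ± 0.25 (adjusted p = 0.319 in edgeR's test). Cyp51, the lanosterol demethylase, had 11.8, 24.8 and 13.3 CPM in tMCAO 1 to 3, against 12.7, 13.9 and 6.88 CPM in sham 1 to 3, with tMCAO 2 above all other libraries. Cyp51 did not pass, at 0.45 ± 0.36 on the log2 scale (adjusted p = 0.427 in edgeR's test). Fdft1 (squalene synthase), Nsdhl (a sterol dehydrogenase) and Lss (lanosterol synthase) had log2 fold changes of -0.36, -0.37 and 0.31, with SE of 0.31, 0.34 and 0.46. Sqle (squalene epoxidase), Tm7sf2 (a sterol reductase) and Hsd17b7 (a sterol ketoreductase) were not tested, with 1 to 10 counts per library. Stard4, which moves sterols between membranes, was not tested either, with 1, 5 and 5 counts after tMCAO and 9, 8 and 7 after sham.

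**Figure D4:**
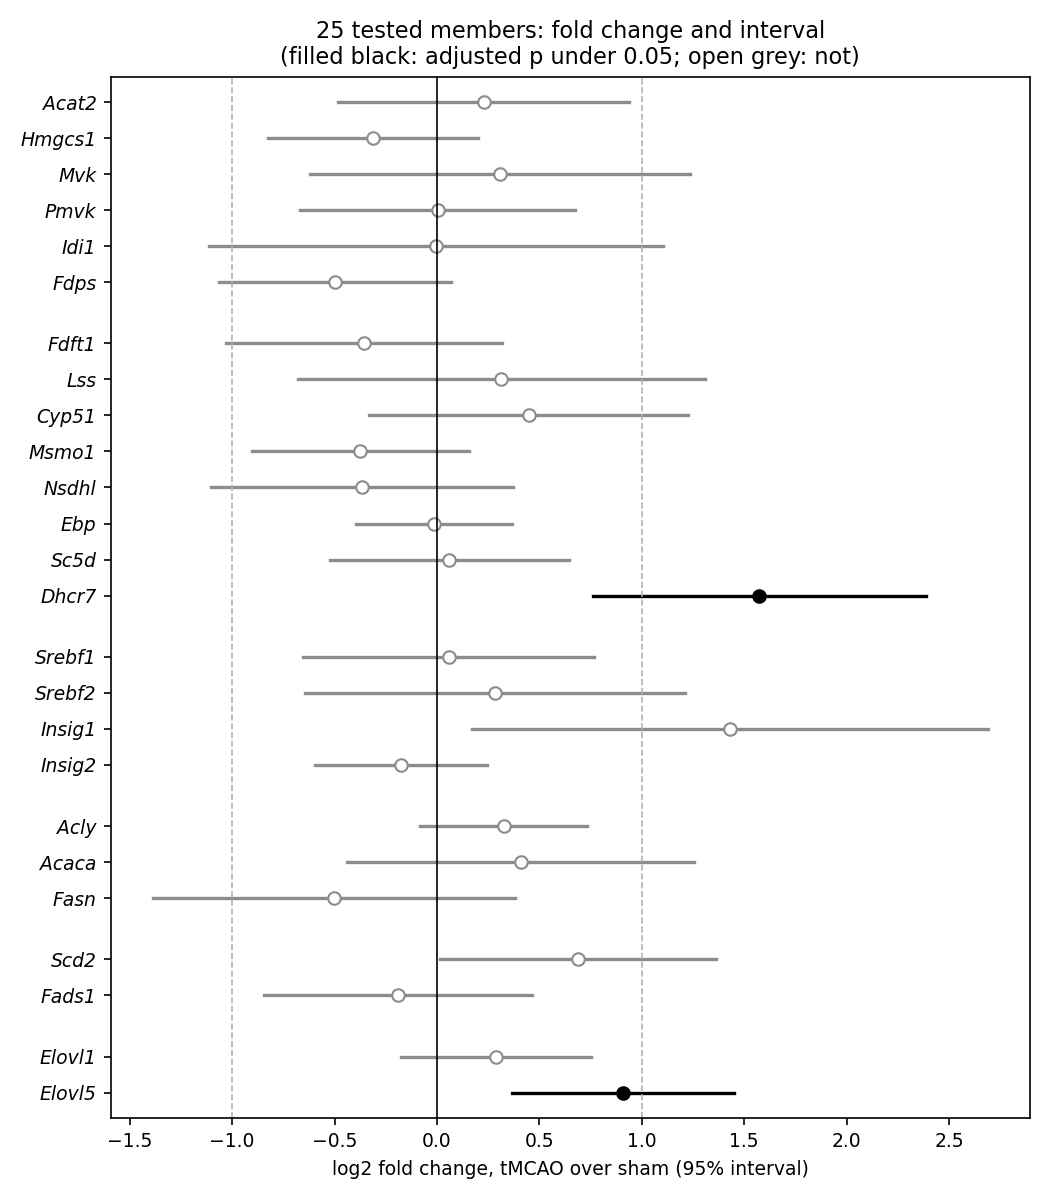
Log2 fold change (tMCAO over sham) of the 25 tested members with its 95% interval. Filled black points are the 2 members that passed, Dhcr7 (1.57) and Elovl5 (0.91); dashed lines mark a halving and a doubling.

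The regulators of the pathway did not pass the test. Srebf1, the SREBP gene linked mainly to fatty acid synthesis, had 10.3, 7.55 and 6.92 CPM in tMCAO 1 to 3, against 6.75, 7.53 and 7.65 CPM in sham 1 to 3. Its log2 fold change was 0.06 ± 0.33 (interval -0.65 to 0.77). Srebf2, linked mainly to sterol synthesis, had 10.8, 5.39 and 3.73 CPM in tMCAO 1 to 3, against 4.22, 4.36 and 6.50 CPM in sham 1 to 3, and its interval, -0.64 to 1.21, was wider. Among the tMCAO libraries, Srebf1, Srebf2 and Insig1 were highest in tMCAO 1, as were 37.8% of all tested genes. Scap had 3 to 11 counts per library and was not tested. These are transcript levels, and the cleavage that activates SREBP proteins was not measured.

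Insig1, itself a classic target of SREBP, had 21.2, 14.0 and 4.26 CPM in tMCAO 1 to 3, against 5.06, 6.34 and 1.91 CPM in sham 1 to 3. The tMCAO libraries 1 and 2 were above every sham library, and tMCAO 3 lay between sham 3 and sham 1. The log2 fold change was 1.43 ± 0.57 (interval 0.17 to 2.69), with an adjusted p of 0.11 in edgeR's test and an unadjusted p of 0.0300. Without tMCAO 3 it passed at a log2 fold change of 1.84 (adjusted p = 0.0136), and it also passed with both sham 1 and tMCAO 3 left out (0.0378) and with no filter on low counts (0.00262). Its highest adjusted p among the alternatives was 0.302. Insig2, its less sterol-responsive relative, had 31.5, 34.0 and 35.1 CPM in tMCAO 1 to 3, against 34.6, 32.5 and 37.9 CPM in sham 1 to 3. The groups overlapped and the log2 fold change of Insig2 was -0.18 ± 0.19 (interval -0.60 to 0.24, adjusted p = 0.572 in edgeR's test).

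Insig1 made up 40.2%, 29.2% and 10.8% of the counts of the Insig pair in tMCAO 1 to 3, against 12.8%, 16.3% and 4.81% in sham 1 to 3. The 95% Wilson intervals were 31.4 to 49.7%, 20.8 to 39.4% and 5.58 to 19.9% for tMCAO, and 7.46 to 21%, 10.3 to 24.9% and 2.07 to 10.8% for sham. They cover counting error only, and may be too narrow even for that, since PCR reads are not independent molecules. The interval of tMCAO 1 lay above those of all sham libraries. That of tMCAO 2 lay above sham 3 but overlapped sham 1 and sham 2, and that of tMCAO 3 overlapped all sham libraries.

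None of the 3 genes that make palmitate passed the test. Acly, which splits citrate to supply cytosolic acetyl-CoA, had 248, 238 and 259.9 CPM in tMCAO 1 to 3, against 233, 174 and 142 CPM in sham 1 to 3. In CPM the groups did not overlap, although the lowest tMCAO value, in tMCAO 2, lay close above the highest sham value, in sham 1. Divided by the TMM factors (1.073 for tMCAO 1, 1.07 for tMCAO 2 and 0.9795 for sham 1), tMCAO 1 and tMCAO 2 fall below sham 1. The log2 fold change was 0.33 ± 0.19 (interval -0.08 to 0.73, adjusted p = 0.253 in edgeR's test), so a doubling was outside the interval. Fasn, the fatty acid synthase itself, had 4.92, 10.2 and 3.73 CPM in tMCAO 1 to 3, against 9.70, 8.72 and 6.12 CPM in sham 1 to 3. Its log2 fold change was -0.50 ± 0.41, and that of Acaca, the acetyl-CoA carboxylase that commits carbon to fatty acids, was 0.41 ± 0.39.

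Of the 4 desaturases, 2 were tested. Scd2, a stearoyl-CoA desaturase of the brain, had 39.4, 67.4 and 73.0 CPM in tMCAO 1 to 3, against 35.0, 44.0 and 23.7 CPM in sham 1 to 3. The tMCAO libraries 2 and 3 lay above all sham libraries, and tMCAO 1 lay between sham 1 and sham 2. The log2 fold change was 0.69 ± 0.30 (interval 0.02 to 1.36), with an adjusted p of 0.146 in edgeR's test. Without tMCAO 1 it passed at 0.95 (adjusted p = 0.0312), and it also passed with no filter on low counts (0.00782), while its highest adjusted p among the alternatives was 0.46. Scd1, its close paralog, had 3, 0 and 1 counts after tMCAO and 4, 18 and 4 after sham, too few to test, and 18 of its 26 sham counts were in sham 2. With no filter on low counts, edgeR's test called Scd1 lower, at a log2 fold change of -2.30 (adjusted p = 0.0293). Reads of these paralogs could be assigned to either gene by the authors' counting. This was not checked and would bear on the counts of both Scd1 and Scd2.

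Fads1, the delta-5 desaturase, had 24.6, 22.1 and 11.7 CPM in tMCAO 1 to 3, against 19.4, 26.2 and 15.3 CPM in sham 1 to 3. Its log2 fold change was -0.19 ± 0.30 (interval -0.85 to 0.46). Fads2, the delta-6 desaturase that starts the polyunsaturated pathway, had 1, 1 and 0 counts after tMCAO and 1, 0 and 0 after sham. At this depth no fold can be given for Fads2.

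Besides Elovl5, the elongases were Elovl1, which makes very long saturated chains, and Elovl6, which lengthens palmitate. Elovl1 had 69.4, 80.8 and 116 CPM in tMCAO 1 to 3, against 70.4, 61.0 and 70.8 CPM in sham 1 to 3, with tMCAO 3 the highest. Elovl1 did not pass, at 0.29 ± 0.21 on the log2 scale (interval -0.17 to 0.75, adjusted p = 0.386 in edgeR's test). Elovl6 had 0, 3 and 0 counts after tMCAO and 4, 11 and 0 after sham and was not tested.

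For 11 of the 25 tested members the whole 95% interval lay between a halving and a doubling, as it did for 5199 of all 13127 genes tested. These 11 were Acat2, Hmgcs1, Pmvk, Msmo1, Ebp, Sc5d, Srebf1, Insig2, Acly, Fads1 and Elovl1. The other 12 that did not pass had intervals that reach beyond a doubling or a halving, so changes of that size lay within their intervals. Of the 25, 17 were above the filter's minimum of 4.54 CPM in every library. Dhcr7 and Acaca reached it in all tMCAO libraries but not in all sham libraries, and Fasn in all sham but not in all tMCAO libraries.

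Summed over all 18 enzymes from Acat2 to Dhcr7, sterol synthesis genes held 250.2, 269 and 276 CPM in tMCAO 1 to 3, against 257, 285 and 211 CPM in sham 1 to 3. The tMCAO sums lay within the span of the sham sums. Summed over the 10 genes of fatty acid synthesis, desaturation and elongation, levels were 434, 480.2 and 512 CPM in tMCAO 1 to 3, against 404, 354 and 278 CPM in sham 1 to 3. In CPM, all tMCAO sums were above the sham sums. Without Acly they were 186, 242 and 252 CPM in tMCAO 1 to 3, against 171, 179.6 and 135 CPM in sham 1 to 3, again without overlap. These sums are in CPM, without the TMM factors, which were 1.073 for tMCAO 1, 0.9795 for sham 1 and 0.9204 for sham 2. Divided by these factors, tMCAO 1 falls below sham 1 with Acly and below sham 2 without it, so the groups then overlap. Elovl5, which was called, is part of both fatty acid sums. No test was made of any of the sums.

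Among the sham libraries, many members shared their highest and lowest library. Of the 25 tested members, 12 (48.0%) were highest in sham 2 and 16 (64.0%) were lowest in sham 3. Over all tested genes, 24.7% were highest in sham 2 and 28.2% lowest in sham 3, and the difference from the members was not tested. Among the 14 tested sterol enzymes, 8 were highest in sham 2 and 9 lowest in sham 3. In the sham 1 to 3 order, astrocyte marker sums were 274, 408 and 136 CPM, oligodendrocyte sums 417, 1039 and 187 CPM, and sums of the sterol enzymes 257, 285 and 211 CPM. Choroid plexus sums were 13946, 44619 and 8627 CPM and erythroid sums 2864, 6040 and 955 CPM in the same order of libraries, and endothelial sums were 178, 253 and 176 CPM. All of these sums were highest in sham 2 and lowest in sham 3. The other marker sums did not share this order. In sham 1 to 3 they were 104, 97.9 and 85.7 CPM for monocytes and 197, 155 and 203 CPM for border-associated macrophages. Neuronal sums were 9.28, 7.93 and 7.65 CPM, and microglial sums 23028, 24106 and 24073 CPM. The sums of the fatty acid enzymes, 404, 354 and 278 CPM, were highest in sham 1. Whether the marker cells contributed to the members' levels was not tested. In the tMCAO group the highest and lowest members were spread more evenly, with 10, 7 and 8 highest and 10, 6 and 9 lowest in tMCAO 1 to 3.

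**Figure D5:**
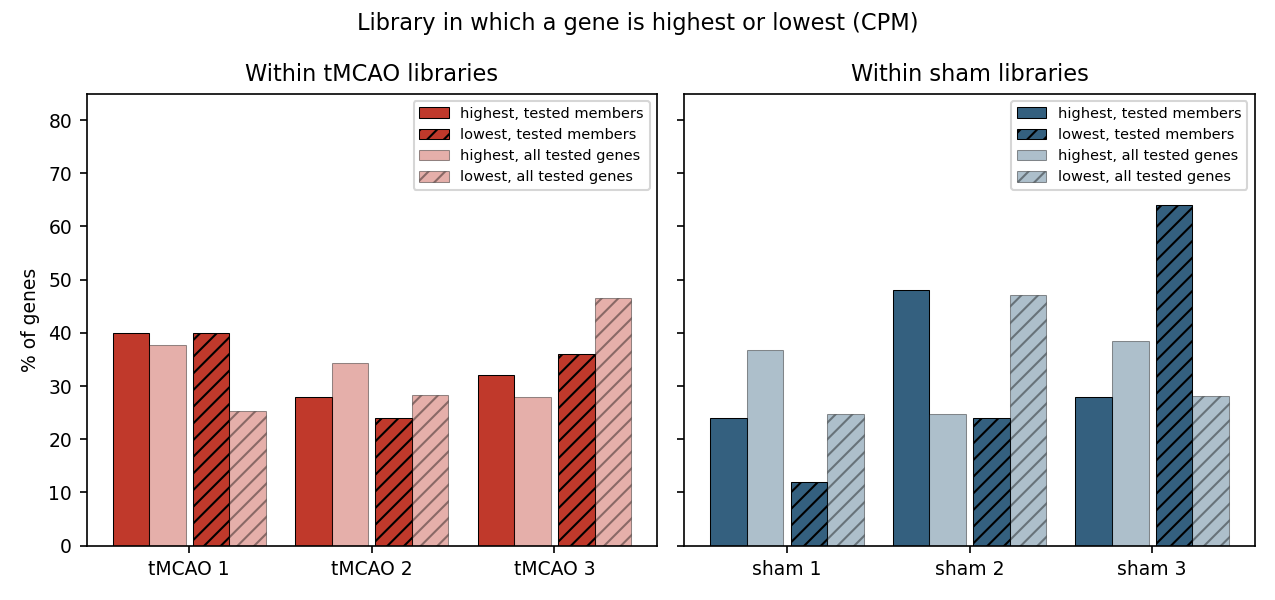
Share of genes whose highest (plain bars) or lowest (hatched bars) CPM within a group falls in each library, for the 25 tested members (dark) and all tested genes (light), tMCAO on the left and sham on the right. Members were lowest in sham 3 in 64.0% of cases, against 28.2% of all tested genes.

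Genes next to these pathways were taken from 3 further lists of 56 genes, of which 55 were in the table and 36 were tested. Of the 36, 6 rose and 3 fell, beside 9.17% higher and 8.96% lower over all genes, with a median log2 fold change of -0.01. Most members of each list did not pass.

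Among 12 tested genes of sterol modification and use, 2 rose and 1 fell. Ch25h, which makes 25-hydroxycholesterol, an oxysterol that holds SREBP inactive through INSIG, had 35.5, 40.4 and 50.1 CPM in tMCAO 1 to 3, against 0.843, 0.396 and 2.29 CPM in sham 1 to 3 (4.96 ± 0.41, adjusted p = 1.18e-05 in edgeR's test). These levels rest on 72, 75 and 94 counts after tMCAO and on 2, 1 and 6 after sham. All sham values of Ch25h lay under the filter's minimum of 4.54 CPM, so it was tested only through its tMCAO levels. Soat1, which esterifies cholesterol for storage, had 88.6, 104 and 149 CPM in tMCAO 1 to 3, against 50.2, 34.9 and 42.8 CPM in sham 1 to 3 (1.31 ± 0.23, adjusted p = 0.00236 in edgeR's test). Cyp27a1, the sterol 27-hydroxylase, fell to 24.6, 19.9 and 16.5 CPM in tMCAO 1 to 3, against 43.0, 30.1 and 31.0 CPM in sham 1 to 3 (-0.89 ± 0.23, adjusted p = 0.0193 in edgeR's test). For Soat1 and Cyp27a1 the groups did not overlap, and for Ch25h the lack of overlap follows from how it passed the filter. Ch25h and Soat1 passed under all 16 alternatives, and the call of Cyp27a1 was lost without sham 1, without tMCAO 2 and without the pair of sham 1 and tMCAO 3 (adjusted p of up to 0.131).

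Among the regulators around SREBP, 13 were tested. Nr1h3, which encodes the sterol-sensing receptor LXR alpha, an activator of Srebf1, had 15.3, 12.4 and 15.4 CPM in tMCAO 1 to 3, against 6.33, 5.15 and 3.06 CPM in sham 1 to 3 (1.45 ± 0.35, adjusted p = 0.0128 in edgeR's test). Nr1h3 passed under all of the 16 alternatives but the one without sham 3 (adjusted p = 0.0577). Its groups did not overlap, and Srebf1 itself lay at 0.06 ± 0.33 as given above.

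Among 11 tested genes of fatty acid and glycerolipid synthesis, 3 rose and 1 fell. Lpin1, a phosphatidate phosphatase on the way to triglyceride, had 37.4, 28.6 and 36.2 CPM in tMCAO 1 to 3, against 17.7, 15.5 and 18.0 CPM in sham 1 to 3 (0.88 ± 0.22, adjusted p = 0.0161 in edgeR's test). Hacd4, a dehydratase of the elongation cycle, rose by 0.88 ± 0.24 (adjusted p = 0.0209 in edgeR's test), and Mlxipl, the glucose-responsive factor ChREBP, by 0.64 ± 0.19 (adjusted p = 0.0353). Thrsp, a regulator of lipogenesis also known as Spot 14, had 53.7, 42.0 and 63.4 CPM in tMCAO 1 to 3, against 80.5, 78.1 and 81.9 CPM in sham 1 to 3 (-0.71 ± 0.20, adjusted p = 0.0245 in edgeR's test). All sham libraries were above all tMCAO libraries for Thrsp. All 4 calls depended on single libraries. The call of Lpin1 was lost without sham 1 or sham 3 (adjusted p of up to 0.0783 over the alternatives), and that of Hacd4 without sham 2, sham 3 or tMCAO 3 (up to 0.0804). Thrsp passed under 10 of the 16 alternatives and was lost without any 1 library other than tMCAO 3 (up to 0.105). Mlxipl passed under 6, and its call was lost without any 1 library other than tMCAO 3, with upper-quartile scaling and with DESeq2 (up to 0.124).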

How the data were processed

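Nanopore cDNA reads of 3 tMCAO and 3 sham libraries were analysed from the authors' table. Per the labels' protocols, RNA was extracted with TRIzol and made into PCR cDNA libraries, and the submitters' processing notes name minimap2. Genome build, annotation, counting rule and strand use were not given in the sources used here. Overlapping and antisense genes therefore cannot be told apart. The deposited counts are raw reads per gene, per the file headers, and the deposited CPM values are those counts scaled by library totals by the authors, from which recomputed CPM differed by at most 4.87e-06. Of 38219 lines, 12 held no values and were left out. At these depths 1 count is 0.382 to 0.539 CPM.

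Counts were tested with edgeR 4.0.16 (R 4.3.3): filterByExpr (minimum count 10, minimum total 15), TMM, robust quasi-likelihood F tests with group as the 1 term, and Benjamini-Hochberg adjustment over all 13127 genes and loci (threshold 0.05). SE is the absolute log2 fold change divided by the square root of F, and 95% intervals use the fit's degrees of freedom. DESeq2 1.42.0, limma 3.58.1 (voom), other scalings and filters, a replicate block and left-out libraries were alternatives. The code was tested on simulated data. Whether pools were prepared together is not stated in the labels, and p-values therefore reflect only how these pools differ, which may be technical.

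The members, the further gene lists, the motifs and the rule for naming genes were chosen with earlier results of these data known. All members were named, with full values for those that passed and for the 10 with the highest mean CPM, and of each further list up to 4 that passed. 1 gene of the further lists is not reported here.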

Additional observations from a re-analysis of the deposited data

How the results depend on the processing

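With 1 library left out, the count of called members ran from 0 to 3, that of the further lists from 4 to 9, and that of all genes from 1254 (without sham 1) to 2590 (without tMCAO 3). Without sham 3, no member, 4 genes of the further lists and 1558 of all genes were called, and without sham 1 the member called was Elovl5, with 5 of the further lists. With no filter on low counts, more genes were tested. Called were 5 of 34 members (4 higher, 1 lower), 14 of 53 genes of the further lists and 4039 of 31736 genes in all. With Ensembl genes only, which leaves fewer genes tested, 1493 of all genes were called, and with sham 1 and tMCAO 3 both left out (4 libraries) 1573. Under DESeq2, limma voom, both other scalings, the CPM filter and no robust estimation, Dhcr7 and Elovl5 were the members called. Library totals alone moved the median (log2) to 0.18 over the members and 0.11 over all genes. Of 397 member values over the alternatives, 30 changed sign, in 9 members, none called, with adjusted p of 0.687 or more in edgeR's and the other tests. Not all 9 lay near 0: Lss, Mvk and Srebf2 were reported at 0.31, 0.31 and 0.28, with SE of 0.46, 0.43 and 0.43. The sign changes with 4 libraries were -0.18 for Mvk, -0.17 for Pmvk and 0.14 for Idi1. The others for Pmvk were -0.063 (upper-quartile scaling), -0.021 (limma voom), -0.043 (Ensembl genes only) and -0.0088 (block). Idi1 had 0.12 with library totals and with limma voom, 0.063 with no filter and 0.0087 with the block. Ebp had 0.093 with library totals and 0.055 with no filter, and upper-quartile scaling gave -0.0073 for Sc5d and -0.014 for Srebf1. With 1 library left out, log2 fold changes ran from -0.21 to 0.28 for Pmvk, -0.34 to 0.26 for Idi1, -0.028 to 0.55 for Lss, -0.063 to 0.087 for Ebp, -0.19 to 0.29 for Sc5d, -0.095 to 0.16 for Srebf1, -0.22 to 0.56 for Srebf2 and -0.39 to 0.068 for Fads1. The cause of these shifts was not tested.

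The labels do not say whether same-numbered libraries were prepared as pairs. Deviations from group means correlated at -0.21, 0.02 and -0.17 between same-numbered libraries, and at -0.115 to 0.255 between differently numbered ones. Deviations within a group depend on each other, so these values cannot decide whether libraries were paired. With the replicate block, 1662 of all genes, 8 of the further lists and 3 members (Dhcr7, Elovl5 and, at an adjusted p of 0.0470, Insig1) were called, and the calls of Thrsp and Mlxipl were lost. The 9 untested members had too few counts for a test, and the intervals of Idi1, Lss and Mvk reach past a doubling.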
